A study of Mus musculus with 20 samples.

Results

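Fatty acid oxidation was described as a module of 38 genes, out of 21154 genes with a named probe, in 5 tissues of mice on 4 diets. The members are the receptor Ppara, the enzymes and carriers that take fatty acids through mitochondrial and peroxisomal oxidation, the ketone body enzyme Bdh1, and well known target genes of PPAR-alpha. They were listed by symbol for their function, and each was read from the probes whose RefSeq accession maps to that symbol, with the brightest probe standing for the gene. All 38 had a probe, and 10 of them had several.

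The arrays held RNA of male C57BL/6J mice, with no genetic change, that started a diet at 5 weeks of age and ate it for 13 weeks. In the diet HFD+PP, a high fat diet with 60% of its energy from fat carried 2% by weight of porphyran, the sulfated cell wall polysaccharide of nori (a red alga), and in HFD+Ex it carried 2% by weight of an extract of nori. HFD was the same high fat diet alone, and CD was a control diet with 10% of its energy from fat. For each diet, RNA of 7 mice was pooled for liver, mesenteric white fat (Mwat in the labels), brown fat (Bat), ileum and colon, which gave 20 one-colour arrays and 1 array per group.

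With 1 array per group, differences between diets could not be checked against replicates, and they are given without a test or a p-value. A level is the log2 signal of a probe minus the 75th percentile of its array, and it is compared only for the same gene across arrays. A member was counted as changed, and is said to have risen or fallen, when 2 arrays differed by at least 2-fold (1 log2) and at least 1 of these arrays had its probe well above background. A smaller step of 0.5 log2 (1.41-fold) was counted as well and was chosen after the values were seen. From spots of bright probes printed repeatedly on an array, the technical error of a difference was 0.0737 log2 (SD). It covers the spread of spots within an array. It does not cover dim probes, differences between arrays or slides in labelling and hybridization, the animals or the pools.

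Fatty acids enter this pathway as acyl-CoA, cross into mitochondria as carnitine esters, and are shortened there by repeated rounds of dehydrogenation, hydration, oxidation and thiolysis. Very long chains start in peroxisomes, the endoplasmic reticulum adds a hydroxyl group at the far end of some chains, and the liver turns surplus acetyl-CoA into ketone bodies. PPAR-alpha is a nuclear receptor that binds fatty acids and raises transcription of many of these genes in liver, intestine and brown fat.

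The tissue labels matched their defining markers. Alb, the hepatocyte protein albumin, lay between 10.46 and 10.56 on the liver arrays and at most at 2.78 elsewhere, and Ucp1, the uncoupling protein of brown fat, lay between 10.01 and 10.35 in brown fat and at most at 0.23 elsewhere. Adipoq, an adipocyte hormone, lay between 7.69 and 8.33 in mesenteric fat and between 7.87 and 8.05 in brown fat. It therefore marks both fats, and Ucp1 separates them. Sis, a disaccharidase of small intestinal enterocytes, lay between 6.65 and 7.97 in ileum, and Slc26a3, a chloride exchanger, lay between 5.28 and 5.84 in colon. Between 50.7% and 67.9% of the spots of an array were well above background and none was saturated. The Mwat arrays with HFD+PP and HFD+Ex lay on another slide than the Mwat HFD array, as did the Bat HFD+Ex array relative to the Bat HFD array, so slide and diet cannot be told apart in these 3 comparisons. In pooled tissue, fewer cells of a type and less RNA per cell cannot be told apart.

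The promoters of 4 members are shown as examples of the sequence at the start of these genes. Ppara, Acadvl and Acot4 are among the members that crossed 2-fold in the ileum and have a window in the table. Slc25a20, which did not cross it, is shown for its match to a receptor motif. Pdk4, which crossed it with HFD+Ex, has a window without a match and is not shown. No result below rests on these letters. Each runs from 250 bases before to 50 bases after the start of transcription, 5′ to 3′ on the strand of the gene, as RefSeq gives it on build GRCm38.p6. Capitals mark a match to AGGTCANAGGTCA (a direct repeat spaced by 1 base, the form bound by PPAR-alpha with its partner receptor RXR) or to its reverse complement TGACCTNTGACCT, with at most 2 mismatches.
Ppara, chr15:85735526-85735825, plus strand: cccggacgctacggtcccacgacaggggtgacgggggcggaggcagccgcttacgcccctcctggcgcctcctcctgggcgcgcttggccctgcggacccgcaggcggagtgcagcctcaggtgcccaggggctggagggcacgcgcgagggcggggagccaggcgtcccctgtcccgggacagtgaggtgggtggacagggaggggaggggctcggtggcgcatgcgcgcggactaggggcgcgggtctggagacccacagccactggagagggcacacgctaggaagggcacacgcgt
Acadvl, chr11:70015379-70015678, minus strand: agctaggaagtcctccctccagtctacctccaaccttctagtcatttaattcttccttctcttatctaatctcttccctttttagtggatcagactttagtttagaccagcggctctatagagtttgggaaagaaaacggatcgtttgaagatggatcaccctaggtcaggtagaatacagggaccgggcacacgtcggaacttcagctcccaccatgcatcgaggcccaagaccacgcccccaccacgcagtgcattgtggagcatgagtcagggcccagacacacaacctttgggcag
Acot4, chr12:84038129-84038428, plus strand: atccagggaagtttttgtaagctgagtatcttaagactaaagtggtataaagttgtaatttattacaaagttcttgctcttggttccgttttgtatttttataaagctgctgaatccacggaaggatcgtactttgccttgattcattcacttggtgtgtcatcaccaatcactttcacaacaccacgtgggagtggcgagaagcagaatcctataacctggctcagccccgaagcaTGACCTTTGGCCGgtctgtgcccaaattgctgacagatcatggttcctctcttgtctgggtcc
Slc25a20, chr9:108661886-108662185, plus strand: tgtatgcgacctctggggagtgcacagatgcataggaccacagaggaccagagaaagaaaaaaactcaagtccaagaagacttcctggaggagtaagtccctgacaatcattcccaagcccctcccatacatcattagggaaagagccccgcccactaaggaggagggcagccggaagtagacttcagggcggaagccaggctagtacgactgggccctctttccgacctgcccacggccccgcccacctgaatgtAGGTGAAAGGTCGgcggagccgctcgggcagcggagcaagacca

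The table of promoters held 32 windows for 30 of the 38 members. A match occurred in 3 of the 32, or 9.38%, against 3.86% of all 32851 windows of the same length. The matches lay in Acot4 (TGACCTTTGGCCG, first base at −13), Slc25a20 (AGGTGAAAGGTCG, first base at 7) and Etfa (TTACCTTTGCCCT, first base at −77), counted from the start of transcription. A match is a description of letters and no evidence of binding, and these windows are short.

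Across tissues, the module split into a brown fat part and a liver part. For 21 of the 38 members all 4 brown fat arrays lay above all 16 arrays of the other tissues, a pattern found for 15.7% of 18820 genes. For another 13 the 4 liver arrays lay above all others, which held for 14.2% of genes. The remaining 4 (Ppara, Slc22a5, Hsd17b4 and Vnn1) had overlapping leading tissues. Here the 4 diet arrays of a tissue served as the spread. The number of members with a leading tissue stayed at 34 of 38 under 5 other ways of scaling or of joining probes.

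Ppara, the receptor, lay between 7.00 and 7.20 in liver and between 6.83 and 7.15 in brown fat, 2 ranges that overlapped. It lay between 2.55 and 3.63 in ileum, between 1.11 and 1.47 in mesenteric fat and between 1.22 and 1.48 in colon. The 2 lowest tissues overlapped as well.

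In the carnitine shuttle the 2 isoforms of the rate-limiting enzyme carnitine palmitoyltransferase 1 had opposite leading tissues. Cpt1b, the muscle isoform, lay between 5.92 and 6.25 in brown fat and between −3.85 and −1.64 everywhere else. Cpt1a, the liver isoform, lay between 6.21 and 6.56 in liver and was lowest in brown fat, between 1.51 and 2.15. Cpt2, which frees the acyl group inside the mitochondrion, lay between 7.68 and 8.16 in brown fat, and Slc25a20, the carnitine carrier of the inner membrane, between 5.06 and 5.45. Crat, which makes acetylcarnitine, and Acsl1, which activates long-chain fatty acids, were also highest in brown fat, with tissue medians 3.08 and 0.65 log2 above the next tissue. Slc22a5, which brings carnitine into the cell, overlapped between brown fat and ileum. Slc27a2, a transporter and activator of very long chains, lay between 8.24 and 8.48 in liver, between 4.69 and 5.62 in brown fat, and between −4.99 and −2.43 in mesenteric fat.

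All 8 members of the mitochondrial spiral were highest in brown fat. These are the acyl-CoA dehydrogenases for medium, long, very long and short chains (Acadm, Acadl, Acadvl and Acads), the 2 subunits of the trifunctional protein (Hadha and Hadhb), the hydroxyacyl-CoA dehydrogenase Hadh and the thiolase Acaa2. The margin over the next tissue, which was liver for all 8, ran between 0.72 log2 for Acaa2 and 3.36 for Hadhb. The 3 parts of the electron transfer flavoprotein system (Etfa, Etfb and Etfdh), which hand the electrons of the dehydrogenases to the respiratory chain, had the same order with margins between 1.32 and 1.62. Of the helpers for unsaturated chains, Eci1, Decr1 and Ech1 were highest in brown fat, and Eci2 and Decr2 were highest in liver.

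The peroxisomal members were led by liver. Ehhadh, the bifunctional enzyme, lay between 4.93 and 5.12 in liver and between 3.35 and 4.40 in brown fat. The thiolases Acaa1a and Acaa1b and the division factor Pex11a were highest in liver, with margins of 1.26, 3.52 and 1.54 log2. Acaa1a and Acaa1b are near-identical copies, so probes can cross-react and their values are uncertain as separate genes. Hsd17b4, the second bifunctional enzyme, overlapped between liver (7.23 to 7.62) and brown fat (6.97 to 7.39).

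Cyp4a10 and Cyp4a14, the omega-hydroxylases long used as readouts of PPAR-alpha in mouse liver, lay at 6.20 to 7.08 and 6.88 to 8.07 in liver, with margins of 8.06 and 10.2 log2 over the next tissue. They belong to a family of close copies, with the same limit. Cyp4a14 was not well above background on 8 of the 20 arrays, all in mesenteric fat, ileum and colon. Bdh1, which interconverts the 2 ketone bodies, lay between 6.91 and 7.27 in liver, between 4.57 and 5.12 in the gut, and between −3.74 and −2.42 in brown fat, its lowest tissue. Pdk4, the kinase that turns off pyruvate oxidation, lay between 7.78 and 8.24 in brown fat and at most at 3.28 elsewhere. Of the acyl-CoA thioesterases, Acot1 and Acot4 were highest in liver and Acot2 in brown fat. Acot1 and Acot2 are close copies too. Vnn1, the pantetheinase that frees cysteamine in CoA turnover, lay between 2.95 and 4.27 in liver and between 2.78 and 3.96 in ileum, which overlapped.

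**Figure D1:**
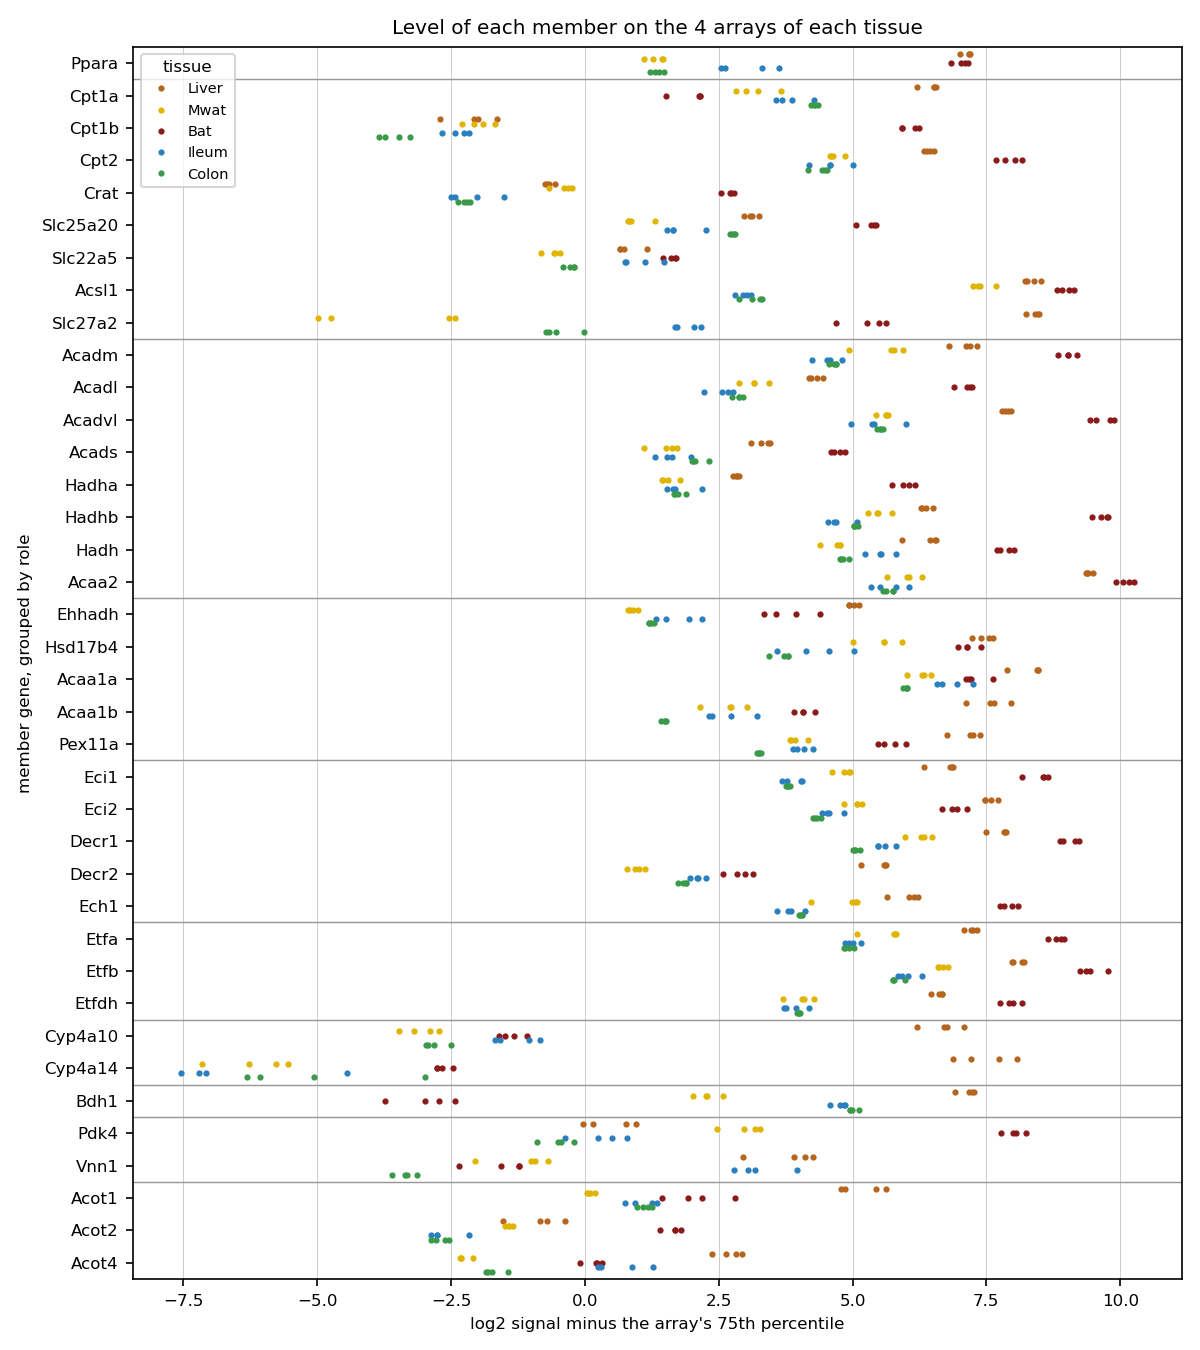
Level of each of the 38 members (log2 signal minus the 75th percentile of the array, horizontal axis) on the 4 arrays of each tissue, 1 point per array, with genes in rows grouped by role and tissues in colours. The brown fat points stand to the right of all others for 21 members and the liver points for 13; points are comparable only within a row.

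The ileum held the widest response of the module to the high fat diet. Against CD, 34 of 38 members were higher on the HFD array and 4 were lower, where 49.8% of all genes were higher. The members' median was 0.53 log2 against 0.00 for all genes. By 2-fold, 4 members rose and 0 fell, where 3.89% of all genes changed either way. By the smaller step, 22 members (57.9%) were higher by at least 0.5 log2, against 7.73% of all genes, and 2 (5.26%) were lower, against 10.3%. The HFD array was the highest of the 4 ileum arrays for 34 members, against 30.7% of all genes.

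Ppara stood in the ileum at 2.55 with HFD+PP, 3.31 with HFD+Ex, 3.63 with HFD and 2.63 with CD. The HFD+PP and CD arrays lay close together and the HFD array above all others. With HFD it rose 2.00-fold over CD, at the edge of the threshold, and 4 of 7 other settings put it below (lowest 0.90 log2). Another of its 3 probes gave 0.80 log2.

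Hsd17b4, of the peroxisomal pathway, stood at 4.12 with HFD+PP, 4.57 with HFD+Ex, 5.03 with HFD and 3.59 with CD. Its rise with HFD over CD, 2.72-fold, was the largest among the 38 members in this tissue. Acadvl, which starts the oxidation of the longest mitochondrial chains, stood at 5.40 with HFD+PP, 5.37 with HFD+Ex, 6.00 with HFD and 4.97 with CD (2.04-fold for HFD over CD). Under 4 of 7 other settings this rise was below 2-fold (lowest 0.88 log2). Vnn1 stood at 3.04 with HFD+PP, 3.18 with HFD+Ex, 3.96 with HFD and 2.78 with CD (2.25-fold for HFD over CD). For all 3 the HFD array was the highest and the supplement arrays lay between HFD and CD. Crat and Acot4 lay just inside 2-fold, at 0.99 and 0.97 log2.

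By role, 7 of the 8 mitochondrial spiral enzymes were higher in the ileum by at least 0.5 log2 with HFD than with CD, with Acadl the exception at 0.10. So were 6 of the 8 genes of uptake, activation and the carnitine shuttle: Cpt1a by 0.72, Cpt1b by 0.50, Cpt2 by 0.81, Crat, Slc25a20 by 0.72 and Slc22a5 by 0.71. Acsl1, at −0.06, was not. Of the peroxisomal members, 4 of 5 were (Ehhadh by 0.86, Acaa1b by 0.90, Acaa1a by 0.66 and Hsd17b4). The 3 electron transfer genes ranged between 0.30 and 0.44, and of the helpers for unsaturated chains 1 of 5, Ech1, reached the step at 0.52. Bdh1 differed by −0.08. The omega-hydroxylases were lower. Cyp4a10 stood at −1.69 with HFD and −0.83 with CD, although 1 of its other probes differed by 0.23. Cyp4a14 was not well above background with HFD, HFD+PP or HFD+Ex, and with HFD it was at least 1.74-fold lower than with CD, where it stood at −4.45.

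With porphyran in the high fat diet, 35 of the 37 measured members were lower in the ileum than with HFD and 2 were higher. Of all genes, 50.5% were lower. The members' median was −0.46 log2 against −0.00 for all genes. By 2-fold, 0 rose and 2 fell, Ppara (−1.08) and Acot4, where 2.90% of all genes changed either way. Acot4, a peroxisomal thioesterase, stood at 0.24 with HFD+PP, against 1.28 with HFD (2.05-fold). It was below 2-fold under 2 of 7 other settings, and Ppara under 1, the mean of its probes (−0.87). Counted by the 0.5 log2 step, 17 members (45.9%) were lower, against 5.59% of all genes, and 1 (2.70%) was higher, against 6.79%. The 17 included 4 of 8 shuttle genes, 3 of 8 spiral enzymes, 4 of 5 peroxisomal genes and all 3 thioesterases; Crat was lower by 0.92 log2, Vnn1 by 0.92, Hsd17b4 by 0.91 and Acaa1b by 0.83. Cyp4a10 was higher, at −1.05 with HFD+PP against −1.69 with HFD. One other probe of Ppara gave −0.999 log2 and the third −0.54.

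With the nori extract, 36 of 37 measured members were lower than with HFD and 1 was higher, where 56.4% of all genes were lower. The members' median was −0.34 log2 against −0.03 for all genes. By 2-fold, 1 fell, where 1.83% of all genes changed either way. It was Pdk4, at −0.37 with HFD+Ex against 0.79 with HFD (2.23-fold). At 0.5 log2, 6 members (16.2%) were lower, against 3.56% of all genes, and 0 were higher, against 4.91%. Beside Pdk4 these were Vnn1 (−0.77), Acadvl (−0.62), Acot2 (−0.61), Slc25a20 (−0.60) and Acadl (−0.55). Ppara was lower by 0.31 log2. All 3 ileum comparisons use the same HFD array, so they are not independent of one another. Read against the CD array instead, which they also share, the members' median was 0.10 log2 with HFD+PP, 0.29 with HFD+Ex and 0.53 with HFD.

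Cell type markers also differed between the ileum arrays, some in the direction of the members and some against it. The median level of 11 small intestinal enterocyte markers was 4.32 with HFD+PP, 4.56 with HFD+Ex, 4.97 with HFD and 4.30 with CD, with 4 of 11 markers 2-fold higher with HFD than with CD and 0 lower. The summed signal of 10 smooth muscle markers was 9.60 log2 with HFD+PP, 9.44 with HFD+Ex, 8.97 with HFD and 9.49 with CD. The median of 12 adipocyte markers was 2.63 with HFD+PP, 1.64 with HFD+Ex, 0.75 with HFD and 2.87 with CD. The 2 measures of the hepatocyte markers disagreed. Their median was 0.72 with CD and −2.06 with HFD, but their summed signal was 6.47 with CD and 7.12 with HFD. Of the 12 markers, 10 were lower with HFD than with CD and 2 were higher. Alb stood at −5.68 with HFD and 1.35 with CD, and Apoa1 at 6.79 with HFD and 5.81 with CD. The part of these markers in the module's differences was not tested.

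**Figure D2:**
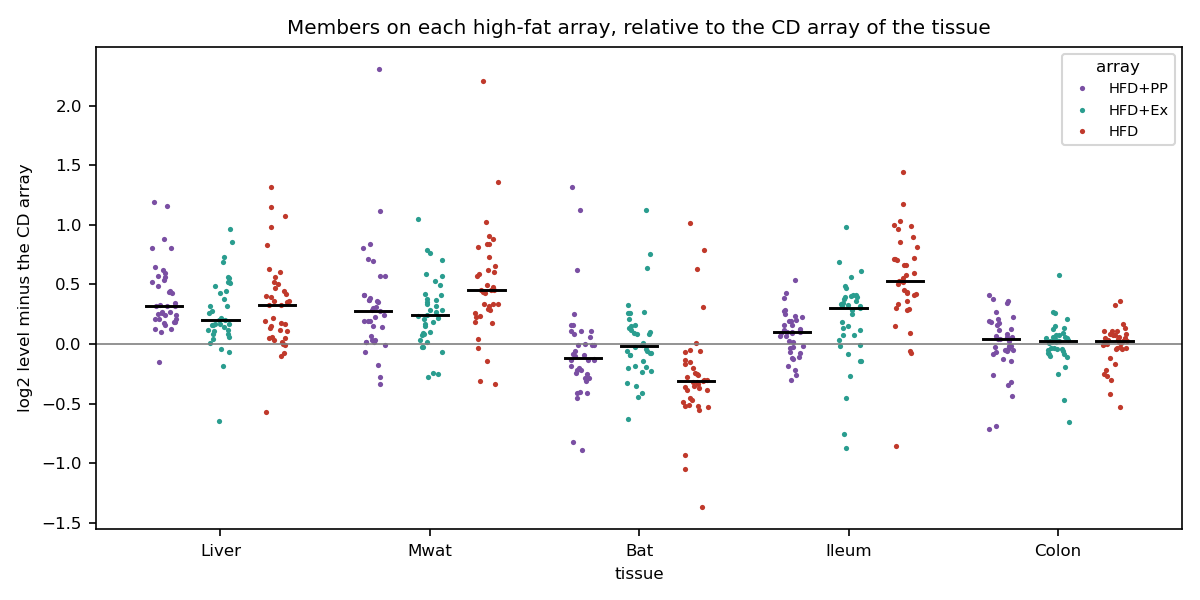
Log2 level of each member on the HFD+PP, HFD+Ex and HFD arrays minus its level on the CD array of the same tissue (vertical axis), by tissue, with 1 point per member and black lines at the medians. The points of Cyp4a14 are left out in Mwat, Ileum and Colon, where it was often not well above background. In the ileum the HFD median sits highest, in liver the medians of all 3 diets sit above 0, and in colon all 3 lie near 0.

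In the liver, the high fat diet was accompanied by modest and mostly upward differences. Against CD, 34 of 38 members were higher with HFD and 4 lower, where 44.3% of all genes were higher. The members' median was 0.33 log2 against −0.04 for all genes. By 2-fold, 3 rose and 0 fell, where 4.82% of all genes changed either way. By the smaller step, 10 members (26.3%) were higher, against 10.3% of all genes, and 1 (2.63%) was lower, against 7.65%. The CD array was the lowest of the 4 liver arrays for 33 of 38 members, against 29.0% of all genes.

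Vnn1 stood in the liver at 4.11 with HFD+PP, 3.91 with HFD+Ex, 4.27 with HFD and 2.95 with CD. Its rise with HFD over CD, 2.49-fold, was the largest of the 38 members in liver, and the CD array lay below the other 3. Acot2, the mitochondrial thioesterase, stood at −0.72 with HFD+PP, −0.83 with HFD+Ex, −0.37 with HFD and −1.52 with CD (2.22-fold for HFD over CD, and 0.85 log2 with normexp background correction). Its close copy Acot1 was lower with HFD, at 4.86, than with CD, at 5.43. Cpt1b stood at −1.64 with HFD and −2.72 with CD (2.10-fold), but the other Cpt1b probe gave 0.24 log2, so this call rests on 1 probe. Pdk4 lay just inside 2-fold, at 0.96 with HFD and −0.03 with CD.

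Of the classical liver targets, Cyp4a10 was higher by 0.50 log2 with HFD than with CD and Cyp4a14 by 0.32. The peroxisomal genes were higher in all 5 cases, led by Acaa1b (0.83), Pex11a (0.61) and Acaa1a (0.56). Hadh (0.63) was past the smaller step among the 8 spiral enzymes and Eci1 (0.52) among the 5 helpers for unsaturated chains, while Acadl, Acadvl, Hadha and Hadhb differed by 0.06 or less. Ppara differed by 0.18. The liver HFD array also carried more signal of adipocyte markers, with a median of 1.63, against −0.48 with CD, and 7 of 10 measured markers 2-fold higher. Of other lists, 5 of 8 mesothelial, 4 of 9 smooth muscle and 4 of 14 macrophage markers were 2-fold higher with HFD than with CD and 0 were lower. Hepatocyte markers had a median of 9.55 with HFD and 9.77 with CD, and 0 of 12 changed 2-fold. The part of these markers in the differences was not tested.

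The module differed little in the liver between the supplemented diets and HFD. With porphyran, 0 members changed 2-fold, where 2.11% of all genes did. At 0.5 log2, 2 members (5.26%) were higher, against 4.67% of all genes, and 0 were lower, against 6.02%. The 2 were Cyp4a14, at 8.07 with HFD+PP against 7.20 with HFD, and Acot1, at 5.62 with HFD+PP against 4.86 with HFD. The members' median of 0.04 log2 turned negative under 3 of the 7 other settings, so it has no direction. With the extract, 0 members changed 2-fold, where 3.07% of all genes did. Counted by the 0.5 log2 step, 1 member (2.63%) was higher, against 4.29% of all genes, and 1 (2.63%) was lower, against 6.82%. Cyp4a14 stood at 7.74 with HFD+Ex, against 7.20 with HFD. Pdk4 stood at 0.15 with HFD+Ex, against 0.96 with HFD.

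In mesenteric white fat, most members were higher with HFD than with CD. Of 37 measured members 33 were higher and 4 lower, where 60.3% of all genes were higher. The members' median was 0.45 log2 against 0.14 for all genes, so the members stood 0.31 above the shift of the whole array pair. By 2-fold, 3 rose and 0 fell, where 17.7% of all genes changed either way. By the smaller step, 14 members (37.8%) were higher, against 27.1% of all genes, and 0 were lower, against 15.9%. The share of members changed by 2-fold, 8.11%, was thus below the background.

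Acadm, the medium-chain dehydrogenase, stood in this fat at 5.77 with HFD+PP, 5.72 with HFD+Ex, 5.95 with HFD and 4.93 with CD (2.03-fold for HFD over CD). Vnn1 stood at −0.94 with HFD+PP, −1.004 with HFD+Ex, −0.69 with HFD and −2.05 with CD (2.57-fold for HFD over CD). The Acadm rise was below 2-fold under 2 of 7 other settings (lowest 0.89 log2) and the Vnn1 rise under 1, normexp (0.93). In both the CD array was the lowest of the 4. Next came Hsd17b4 (0.91), Acaa1b (0.88), Cpt1a (0.84), Ech1 (0.84), Pdk4 (0.81) and Etfa (0.73). Ppara was lower with HFD than with CD, by 0.34 log2, as was Pex11a, by 0.31.

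Slc27a2 stood apart in this tissue. It stood at −2.43 with HFD+PP, −4.99 with HFD+Ex, −2.53 with HFD and −4.74 with CD, so it rose 4.62-fold with HFD over CD and fell 5.49-fold with HFD+Ex relative to HFD. With normexp these differences were 0.95 log2, below 2-fold, and −1.22 log2. The summed signal of enterocyte markers was 5.66 with HFD+PP, 4.50 with HFD+Ex, 6.53 with HFD and 4.37 with CD. Like Slc27a2, it was higher with HFD than with CD and lower with HFD+Ex than with HFD. With HFD+PP the sum was lower than with HFD, while Slc27a2 was not. Single enterocyte markers differed in this: Fabp2 stood at 4.29 with HFD+PP and 4.51 with HFD, and Apoa4 at −0.55 and 2.38. The median of the hepatocyte markers was −1.57 with HFD+PP, −2.84 with HFD+Ex, −2.22 with HFD and −2.96 with CD. Their summed signal had another order, at 6.44, 6.47, 5.20 and 7.04. Exocrine pancreas markers summed to 11.53 with HFD+PP, 9.70 with HFD+Ex, 5.38 with HFD and 10.8 with CD. B and T lymphocyte markers summed to between 7.43 and 8.50 on the other 3 arrays and to 5.22 with HFD, and macrophage markers to between 7.52 and 7.70 on the other 3 and to 8.85 with HFD. The tissue's own adipocyte markers were higher with HFD than with CD for 9 of 12 and lower for 3, with a median difference of 0.43 log2. All 10 smooth muscle markers were higher with HFD than with CD, with a median difference of 0.81 log2. The part of these markers in the values of the module was not tested.

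Beyond Slc27a2, the supplements gave small differences in mesenteric fat, measured across slides. With porphyran, 0 members changed 2-fold, where 8.91% of all genes did. Counted by the 0.5 log2 step, 0 members were higher, against 10.3% of all genes, and 2 (5.26%) were lower, against 14.2%: Cpt1a at 3.02 with HFD+PP against 3.66 with HFD, and Bdh1 at 2.01 with HFD+PP against 2.58 with HFD. The median was −0.16 log2 against −0.10 for all genes. With the extract, Slc27a2 was the only member changed 2-fold, where 7.50% of all genes were. At 0.5 log2, 0 members were higher, against 9.10% of all genes, and 3 (8.11%) were lower, against 11.6%: Slc27a2, Cyp4a10 (−0.73) and Slc25a20 (−0.51). The median was −0.21 log2 against −0.06.

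In brown fat, the leading tissue of 21 members, the members were mostly lower with HFD than with CD. By the main scaling 33 of 38 were lower and 5 higher, where 58.8% of all genes were lower. The members' median was −0.31 log2 against −0.11 for all genes. Under quantile normalization, however, 18 members were lower and 20 higher, with a median of 0.02. It was the only 1 of 7 other settings that turned the sign. With the authors' scaling all genes shifted to 0.15 and the members' median was −0.05. Relative to all genes the members stood −0.21 by the main scaling, −0.20 by the authors' and 0.02 by quantile normalization. The direction for the module as a whole in this tissue therefore rests on the scaling.

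By 2-fold, 1 member rose and 2 fell in brown fat, where 9.41% of all genes changed either way. By the smaller step, 3 members (7.89%) were higher with HFD than with CD, against 15.2% of all genes, and 8 (21.1%) were lower, against 13.6%. Acot1 stood at 1.92 with HFD+PP, 2.18 with HFD+Ex, 1.44 with HFD and 2.81 with CD, and fell 2.59-fold with HFD relative to CD. Ehhadh stood at 3.57 with HFD+PP, 3.95 with HFD+Ex, 3.35 with HFD and 4.40 with CD, and fell 2.07-fold. For both the HFD array was the lowest of the 4, and Acot1 stayed past 2-fold under all 7 other settings while Ehhadh did so under 3. Slc27a2 lay just inside 2-fold, at 4.69 with HFD and 5.62 with CD.

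Bdh1 rose in brown fat, with −2.73 on the HFD array and −3.74 on the CD array (2.02-fold). The rise was below 2-fold under 3 of 7 other settings, at 0.17 log2 with normexp, 0.52 with the mean of its probes and 0.90 with quantile normalization. Vnn1 (0.79) and Cpt1a (0.63) were also higher. All 8 spiral enzymes differed by less than 0.4 log2, between −0.37 for Acadvl and −0.05 for Acads. Ppara differed by −0.32 and Pdk4 by −0.46. The macrophage markers summed to 7.12 with HFD and 5.37 with CD, with 13 of 14 markers 2-fold higher, and hepatocyte markers had a median of −0.63 with HFD and −3.48 with CD. Brown adipocyte markers summed to 11.8 with HFD and 12.1 with CD. By the main scaling 11 of 12 were lower and 1 higher, with a median difference of −0.34 log2. White and shared adipocyte markers were lower for 10 of 12 and higher for 2 (−0.29). Skeletal muscle markers were lower for 11 of 15 and higher for 4 (−0.36). The part of these markers in the differences was not tested.

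With either supplement, 36 of 38 members were higher in brown fat than with HFD alone and 2 were lower. Of all genes, 55.7% were higher with HFD+PP than with HFD, and 62.3% with HFD+Ex. With porphyran the median was 0.19 log2 against 0.03 for all genes, and 0 members changed 2-fold, where 3.67% of all genes did. At 0.5 log2, 1 member (2.63%) was higher, against 4.41% of all genes, and 0 were lower, against 7.94%. It was Slc27a2, at 5.49 with HFD+PP against 4.69 with HFD. With the extract the median was 0.32 log2 against 0.07 for all genes, and 0 members changed 2-fold, where 4.25% of all genes did. Counted by the 0.5 log2 step, 3 members (7.89%) were higher, against 5.62% of all genes, and 0 were lower, against 8.52%: Acot1 (0.74), Ehhadh (0.60) and Slc27a2 (0.58). All 8 spiral enzymes were higher with both supplements than with HFD, by between 0.11 and 0.45 log2. Brown adipocyte markers were higher than with HFD for 12 of 12 with HFD+PP (median difference 0.15 log2) and 11 of 12 with HFD+Ex (0.15). White and shared adipocyte markers were higher for 10 of 12 with HFD+PP (0.08) and 11 of 12 with HFD+Ex (0.16), and the rest were lower. Macrophage markers summed to 6.54 with HFD+PP and 6.11 with HFD+Ex, against 7.12 with HFD. Skeletal muscle, which also burns fatty acids, had markers that summed to 8.54 with HFD+PP and 8.03 with HFD+Ex, against 7.66 with HFD. All 15 were higher with HFD+PP than with HFD, 6 of them 2-fold, and 14 of 15 were higher with HFD+Ex. Hepatocyte markers were 2-fold lower than with HFD for 8 of 11 measured markers with HFD+PP and 7 of 12 with HFD+Ex, and 1 was 2-fold higher with each supplement. The part of these markers in the differences was not tested. Both comparisons share the HFD array, on which 33 of 38 members, and 34.2% of all genes, were lowest.

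**Figure D3:**
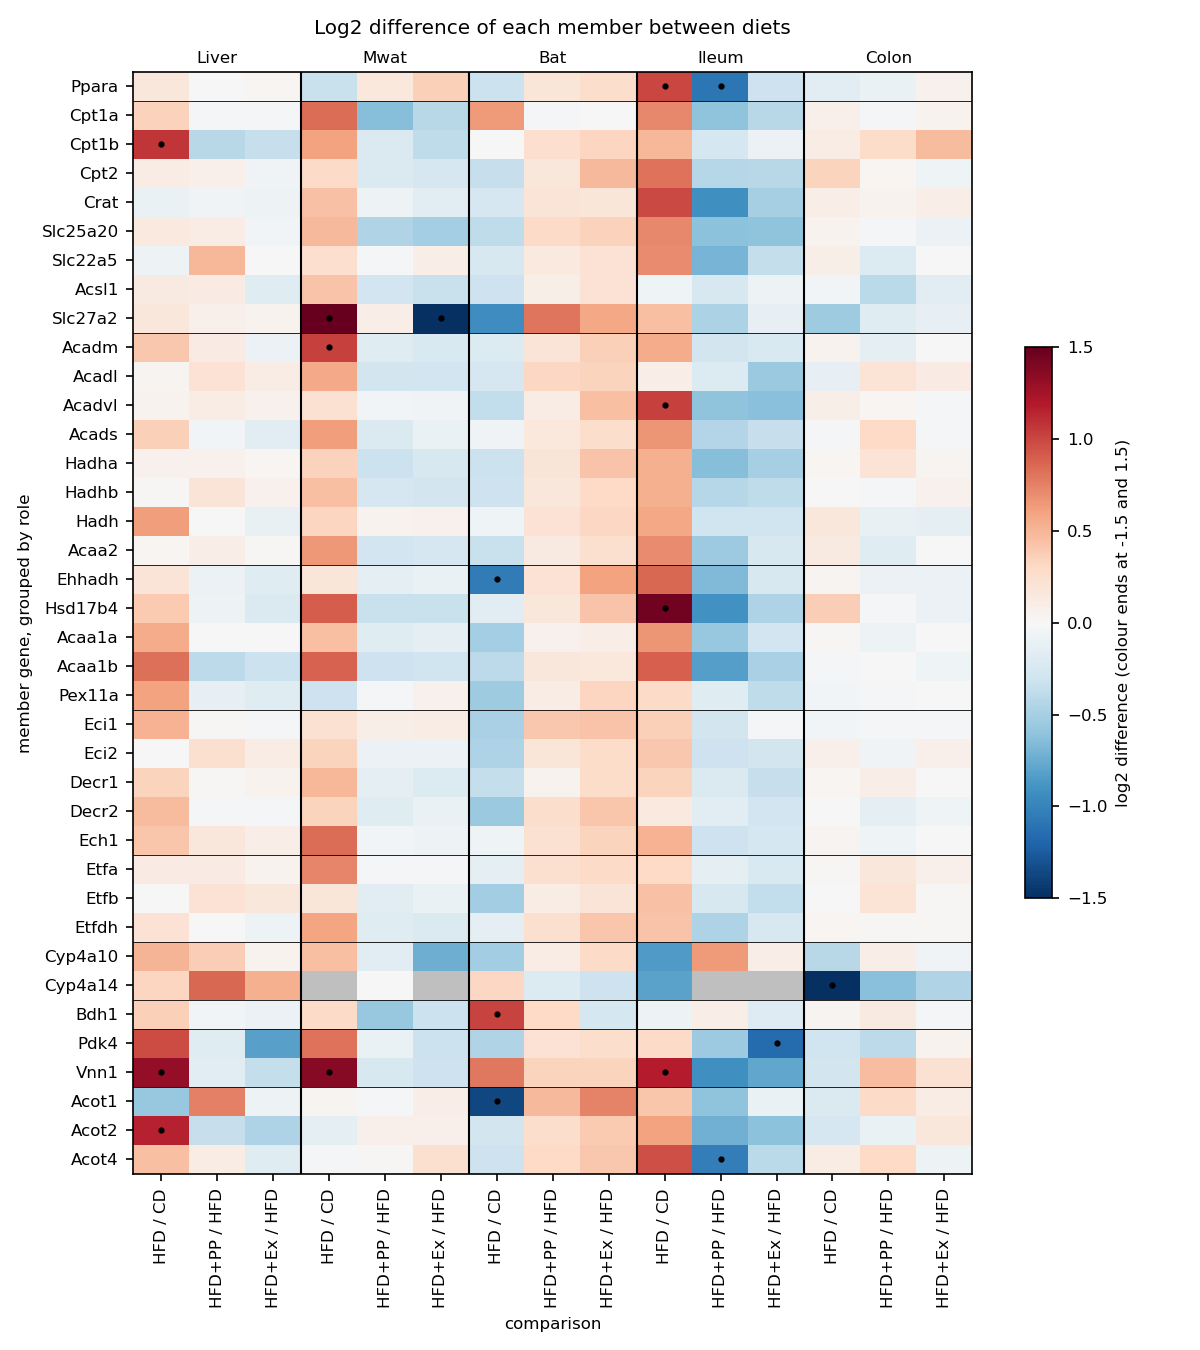
Log2 difference of each member (rows, grouped by role) in each of the 15 comparisons (columns, 3 per tissue), with red for higher and blue for lower in the first named diet, grey where neither array was well above background and black dots at 2-fold or more. The ileum block carries the widest bands, red for HFD against CD and blue for both supplements against HFD, and the colon block is the palest.

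The colon showed almost no difference in the module. Against CD, 0 members rose and 1 fell with HFD, where 2.15% of all genes changed either way. By the smaller step, 0 were higher, against 2.44% of all genes, and 2 (5.26%) were lower, against 5.53%. The median was 0.02 log2, with its sign turned under 3 of the 7 other settings. Cyp4a14 fell 4.20-fold, with −5.06 on the HFD array and −3.00 on the CD array. With normexp this difference was −0.80 log2, below 2-fold. Its probe was not well above background with HFD+PP or HFD+Ex. Slc27a2 was lower by 0.53 log2, and 1 other probe of Cyp4a10 gave −1.53 where the brightest gave −0.42.

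Hepatocyte markers moved with Cyp4a14 in colon. Their median was −2.49 with HFD and 1.18 with CD, with 9 of 12 markers 2-fold lower and 0 higher. Alb stood at −1.76 with HFD and 2.78 with CD. Both members lower by at least 0.5 log2 are highest in liver, as 13 of the 38 members are. Others of the 13 differed little in colon, such as Bdh1 (0.04), Eci2 (0.08) and Pex11a (−0.04). Their colon medians were 4.97, 4.32 and 3.26, against 7.20, 7.53 and 7.23 in liver. The gap between liver and colon was wider for Cyp4a14 (−5.57 in colon, 7.47 in liver), Cyp4a10 (−2.87 and 6.74) and Slc27a2 (−0.60 and 8.43). Cyp4a10 differed by −0.42 log2 with HFD relative to CD. The part of liver RNA in these differences was not tested.

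With porphyran, 0 members changed 2-fold in colon, where 2.88% of all genes did. Counted by the 0.5 log2 step, 0 members were higher, against 7.21% of all genes, and 1 (2.63%), Cyp4a14, was lower by at least 1.55-fold, against 6.27%. With the extract, 0 members changed 2-fold, where 1.54% of all genes did, and by the smaller step 0 were higher, against 3.38%, and 0 were lower, against 2.13%. The median was −0.01 log2 for HFD+PP against HFD and 0.00 for HFD+Ex against HFD. Over the 4 diets, the median range of a member was 0.20 log2 in colon, against 0.37 in liver, 0.41 in brown fat, 0.47 in mesenteric fat and 0.65 in ileum.

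**Figure D4:**
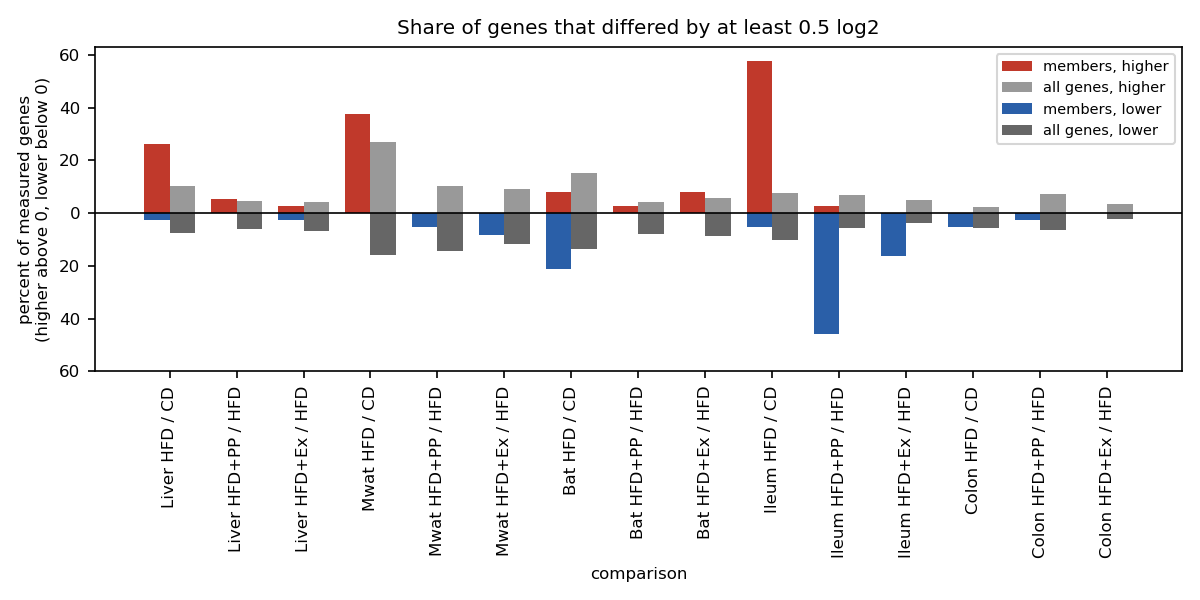
Percent of the measured genes that differed by at least 0.5 log2 (vertical axis, higher above 0 and lower below 0) in each of the 15 comparisons, for the members (coloured bars) and for all genes (grey bars). The members' bars are longest in the ileum, at 57.9% higher for HFD against CD and 45.9% lower for HFD+PP against HFD.

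Other genes of the pathway were counted from lists that do not overlap the members. For all genes, the share changed 2-fold either way with HFD relative to CD was 3.89% in ileum, 4.82% in liver, 17.7% in mesenteric fat and 9.41% in brown fat. Relative to HFD it was 2.90% with HFD+PP and 1.83% with HFD+Ex in ileum, and 8.91% with HFD+PP and 7.50% with HFD+Ex in mesenteric fat. Of the other peroxisomal oxidation genes, 4 of 18 rose and 0 fell in the ileum with HFD relative to CD, with a median of 0.51 log2. They were Scp2, the peroxisomal sterol carrier thiolase (2.75-fold), the branched-chain oxidase Acox2 (2.53-fold), Crot, which makes carnitine esters for export from peroxisomes (2.14-fold), and Abcd3, a transporter of the peroxisomal membrane (2.05-fold). In the same list and tissue 0 rose or fell with either supplement relative to HFD, with medians of −0.39 for HFD+PP and −0.26 for HFD+Ex. In liver 0 of 19 changed in any of the 3 comparisons. In brown fat 1 of 19 fell with HFD relative to CD, Acox2, at 0.28 with HFD against 1.32 with CD.

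Of the other mitochondrial oxidation genes, 0 of 22 rose and 1 fell in the ileum with HFD relative to CD, with a median of 0.04 log2. The 1 was Slc27a5, a liver acyl-CoA synthetase, at −4.47 with HFD against −1.46 with CD. Of the 12 hepatocyte markers, 10 were also lower in ileum with HFD than with CD, among them Alb, and 2 were higher. Their summed signal was higher with HFD, at 7.12 log2, where Apoa1 alone stood at 6.79. The part of liver RNA in this difference was not tested. Acacb, which makes the malonyl-CoA that inhibits carnitine palmitoyltransferase 1, fell with HFD relative to CD in liver (2.03-fold), mesenteric fat (2.52-fold) and brown fat (2.22-fold). Of 8 other ketone body genes, 1 rose in liver with HFD relative to CD, Acat1 (2.04-fold), which joins 2 acetyl-CoA. In mesenteric fat 2 rose and 1 fell: Oxct1, which opens ketone body use, by 2.12-fold, Bdh2 by 2.34-fold, and Slc16a6, a transporter, lower by 2.75-fold.

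Of the other PPAR-alpha targets, 5 of 20 rose and 1 fell in the ileum with HFD relative to CD. Fabp1, a fatty acid binding protein, stood at 5.06 with HFD and 1.99 with CD (8.44-fold), Creb3l3, a transcription factor of liver and intestine, at 6.10 with HFD and 4.30 with CD (3.48-fold), and Acot12, a thioesterase, was at least 15.1-fold higher. With HFD+PP relative to HFD, 1 of 20 rose and 4 fell, among them Fabp1 (12.3-fold) and Creb3l3 (2.75-fold), and with HFD+Ex 0 rose and 2 fell, Fabp1 (8.44-fold) and Acot12 (4.68-fold). In liver 3 of 26 rose with HFD relative to CD. The largest was Cidea, a lipid droplet protein also made by fat cells, at 4.72 with HFD and −2.58 with CD (158.0-fold), followed by the fatty acid transporter Cd36 (4.39-fold). In mesenteric fat 8 of 21 rose and 1 fell with HFD relative to CD, with a median of 0.73 log2, led by Creb3l3 (6.63-fold), Fabp1 (4.90-fold), the lipid droplet protein Plin2 (3.26-fold) and Hilpda (2.95-fold). There 0 rose and 3 fell with HFD+PP relative to HFD, and 0 rose and 5 fell with HFD+Ex, among them Fabp1 (15.1-fold) and Creb3l3 (9.45-fold). In this fat 9 of 11 enterocyte markers were 2-fold higher with HFD than with CD, and their part was not tested. Of 15 nuclear receptors and coregulators, 0 changed in the ileum in any of the 3 comparisons. In liver Pparg rose with HFD relative to CD (2.92-fold) and the coactivator Lpin1 rose with HFD+PP relative to HFD (2.22-fold).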

How the data were processed

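Per the file headers, Agilent Feature Extraction (version 11.5.1.1, protocol GE1_1105_Oct12) quantified the 20 arrays. Each deposited scanner file gives a processed signal per spot, an intensity on a linear scale that the authors left unscaled between arrays. The authors' series matrix holds the same intensity times 1 factor per array, with log2 factors between 0.916 and 1.65 and column medians between 53.5 and 103.6; it is linear and not centred, and what the factor was set to is not given in the sources used here. Labels put each array in a group, and each RNA was a pool of 7 mice.

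Control spots (3671 of 62976 per array) and spots flagged as outliers (117 to 206) were left out, and spots of a probe were averaged. Accessions were matched to a RefSeq table of GRCm38.p6, which named 28026 of 55681 probes. The 75th percentile of each array was subtracted from its log2 signal. A gene counted as measured where at least 1 of the 2 arrays had it well above background. Where the dimmer array was not, its floor stood in (the array's dimmest signal of a probe well above background, or the probe's own where higher, −6.36 to −4.49 log2), and the fold is given as "at least". Calls used 1 log2 and had no test.

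The members and lists, and the step of 0.5 log2, were chosen with earlier results of these data known. All members may be named whatever their values; of other pathway lists, at most 4 genes per comparison with the largest measured difference past 1 log2 are named, and of marker lists at most 3, except the tissue markers. The alternatives were normexp background correction (limma 3.58.1 in R 4.3.3, offset 50, on median signals because mean signals are absent from the files), quantile normalization, scaling to probes bright on all arrays, the authors' values, 2 other filters on dim probes, and the mean of a gene's probes. The calling step was tested on simulated data. Tables were computed with Python 3.11.15, numpy 2.4.6 and pandas 2.3.3.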

Additional observations from a re-analysis of the deposited data

Results flagged for a closer look

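For 8 values, a member was higher in 1 tissue and lower in another by at least 0.5 log2 each under the same contrast. With 1 array per group the difference between tissues was not tested. Over all genes the same pattern held for 14.3% of those measured in HFD against CD, against 5 of 38 members. It held for 8.68% of genes in HFD+PP against HFD, against 2 of 38 members, and for 6.24% in HFD+Ex against HFD, against 1 of 38.

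For HFD against CD, Ehhadh differed by 0.86 log2 in ileum and −1.05 in brown fat, 1.90 apart, and Acaa1a by 0.66 in ileum and −0.51 in brown fat, 1.18 apart. Pex11a differed by 0.61 in liver and −0.53 in brown fat, 1.14 apart. Cyp4a10 differed by 0.50 in liver and −0.86 in ileum, 1.36 apart, and Slc27a2 by 2.21 in mesenteric fat and −0.93 in brown fat, 3.14 apart. For HFD+PP against HFD, Cyp4a14 differed by 0.87 in liver and at most −0.63 in colon, 1.497 apart, and Acot1 by 0.76 in liver and −0.60 in ileum, 1.36 apart. For HFD+Ex against HFD, Slc27a2 differed by 0.58 in brown fat and −2.46 in mesenteric fat, 3.04 apart, and both of these comparisons were made across slides.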

How the results depend on the processing

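The numbers of members led by brown fat (21) and by liver (13) were the same under all 5 settings that apply to them, and no changed member turned its sign. The ileum medians kept their sign under all 7 settings, between 0.43 and 0.54 for HFD against CD, −0.47 and −0.41 for HFD+PP against HFD, and −0.34 and −0.25 for HFD+Ex against HFD. The sign turned in brown fat for HFD against CD (0.02 by quantile normalization), and for liver HFD+PP against HFD (lowest −0.06) and colon HFD against CD (lowest −0.04) under 3 settings each. With normexp, members changed in HFD against CD numbered 1 in liver, 1 in mesenteric fat, 1 in brown fat and 0 in colon, and 1 for ileum HFD+PP against HFD. By the 0.5 log2 step normexp gave 1 lower in mesenteric fat with each supplement, 1 higher and 4 lower in brown fat with HFD, 1 lower in ileum and in colon with HFD, and 0 higher in ileum and 0 lower in colon with HFD+PP. Quantile normalization gave 16 higher and 0 lower in liver with HFD, 1 lower there with HFD+PP, 1 changed and 4 lower in brown fat with HFD, and 1 lower in ileum with HFD. Scaling to bright probes gave 1 lower in mesenteric fat with HFD+PP, 3 lower in brown fat and 2 changed in ileum with HFD. The authors' values gave, in liver, 0 lower with HFD, 1 lower with HFD+PP, and 0 higher and 2 lower with HFD+Ex. They gave 1 lower in mesenteric fat with HFD+PP, 3 lower in brown fat with HFD, 2 changed in ileum with HFD and 1 with HFD+PP. Probe means gave 2 changed in mesenteric fat with HFD+Ex, 2 higher in brown fat with HFD+PP, and 1 changed and 0 higher in ileum with HFD+PP. With no filter on dim probes 2 changed in mesenteric fat with HFD+Ex, 1 in colon with each supplement, and 1 was lower in colon with HFD+Ex. Asking for both arrays well above background gave 1 lower in ileum with HFD and 0 in colon with HFD+PP. The cause of these moves was not tested. The main counts stand in the report. Of the changed members, Vnn1 in liver and ileum, Hsd17b4 in ileum, Pdk4 in ileum, Acot1 in brown fat and Slc27a2 in mesenteric fat with HFD+Ex stayed past 2-fold under all 7 settings. Each group is 1 array, so none could be left out. The labels give no replicate numbers to pair, and a fit that takes the 5 tissues as replicates of a diet was not run, since tissues are not replicates of one another. Low signal limits Cyp4a14, not well above background on 8 arrays.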
